A study of Mus musculus with 12 samples.

Results

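The miR-200 family (miR-200a-3p, miR-200b-3p, miR-200c-3p, miR-141-3p and miR-429-3p) and the miR-183 cluster (miR-183-5p, miR-96-5p and miR-182-5p) were followed in irradiated mouse LLC1 cells, an established Lewis lung carcinoma line. The members were chosen by name, as the entries of the array that carry these mature miRNA names, and they made up 8 of the 576 entries of the array. No member of the miR-200 family was well above background on any of the 12 arrays. MiR-96-5p was detected on 6 arrays, miR-182-5p on 5 and miR-183-5p on 1. With each array scaled to the miRNAs detected on all arrays, miR-96-5p was not called different in any comparison. In the main fit the floor set under weak signals fixed 1 of its 2 probes on all 12 arrays, which limited any difference. Outside 5x2 Gy it was well above background on 1 of 3 arrays per group, so its levels there rest largely on weak signals. The scanner software's flag for a detected gene was set for it on 1 of 3 arrays in control, 3 after 2 Gy and 2 after 10 Gy.

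MicroRNAs were measured on Agilent 1-colour arrays, 1 array per sample and 3 arrays per group. The groups were untreated control cells and cells exposed to X-rays as 2 Gy once, as 10 Gy once, or as 2 Gy delivered 5 times (5x2 Gy), which sums to 10 Gy. Irradiated cells were harvested at 4 h. All 12 samples came from this 1 line, with no genetic change or other agent named in the labels, and the time between fractions is not given. Biological replicate is the labels' term for each array of a group, without a statement that they came from separate cultures, so p-values measure the spread between these samples, which may be technical. RNA of whole cultures was measured, so fewer cells with a miRNA and less of it per cell cannot be told apart.

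MicroRNAs pair with messenger RNAs mainly through the seed, bases 2 to 8 from the 5′ end, and lower their stability and translation. The miR-200 family is a hallmark of epithelial cells: it represses Zeb1 and Zeb2, transcription factors that shut down E-cadherin, and these factors in turn repress the miR-200 genes. The miR-183 cluster is known from sensory cells and from carcinomas. Its member miR-182 represses BRCA1, a protein of DNA double-strand break repair.

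The 8 mature sequences are shown because the seeds divide the members into target groups. They were taken from RefSeq with the mouse assembly GRCm38.p6, in which all 8 were matched by name. Each is written 5′ to 3′ with the seed in capitals.
mmu-miR-200b-3p: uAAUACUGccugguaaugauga
mmu-miR-200c-3p: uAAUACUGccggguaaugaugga
mmu-miR-429-3p: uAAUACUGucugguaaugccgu
mmu-miR-200a-3p: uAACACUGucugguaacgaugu
mmu-miR-141-3p: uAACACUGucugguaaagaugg
mmu-miR-183-5p: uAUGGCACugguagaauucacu
mmu-miR-96-5p: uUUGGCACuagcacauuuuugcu
mmu-miR-182-5p: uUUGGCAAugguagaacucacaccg

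MiR-200b-3p, miR-200c-3p and miR-429-3p shared 1 seed, and miR-200a-3p and miR-141-3p shared another. With positions counted from 1 at the 5′ end and the first-named miRNA's base written first, the family's seeds differed by U4C, from miR-200b-3p to miR-200a-3p. The cluster had 3 seeds, which differed by A2U from miR-183-5p to miR-96-5p and by C8A from miR-96-5p to miR-182-5p. Over 22 bases with the seed included, miR-200b-3p and miR-200c-3p were identical at 20, as were miR-200a-3p and miR-141-3p, while miR-429-3p matched miR-200b-3p, of its own seed, and miR-200a-3p, of the other seed, at 18 each. MiR-183-5p matched miR-182-5p at 18 of the first 22 bases, but miR-96-5p at only 13 of 22. Among other mouse miRNAs in RefSeq only miR-1271-5p had 1 of these seeds, that of miR-96-5p, and no entry of the array carried its name. Entries without a mouse name in RefSeq were not compared. In the RefSeq gene table Mir200a, Mir200b and Mir429 lie on chromosome 4 with 0 genes starting between neighbours. Mir200c and Mir141 are neighbours on chromosome 6. Mir183, Mir96 and Mir182 are neighbours on the same chromosome within the host gene Mirc35hg.

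Each member was measured by 2 probes with 10 spots each per array. A spot counts as well above background by the scanner software's own flag, and a probe with that flag on more than 0.5 of its spots was called detected. The arrays differed in brightness, taken as the 75th percentile of the signal over the 78 probes detected on all arrays. This brightness ran from 110.5 to 388 on 6 dimmer arrays and from 703 to 1102 on 6 brighter ones. The brighter arrays were control replicate 3, 2 Gy replicate 2, 10 Gy replicate 3 and all 3 arrays of 5x2 Gy. Slide 2 carried 10 Gy replicate 3 and the whole 5x2 Gy group, and slide 1 the other 8 arrays. Between 48 and 137 entries were detected per array.

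The miR-200 family lay at background in every group. Of its 1150 usable spots over the 12 arrays, 0 were well above background, whereas the arrays' negative control spots, which match no miRNA, carried the flag at 6 of 7823 spots (0.0767%). The scanner software's flag for a detected gene was set in 0 of 60 combinations of family member and array. The background-subtracted signal of a member on an array ran from -5.94 to 4.45 intensity units, and 36 of the 60 values were below 0. Of 120 probe values, 119 were below the mean of the negative controls on the same array, which ran from 4.92 to 9.69 units. A signal of this size gives only a bound: the lowest signal of any detected probe was 19.9 to 38.4 units, depending on the array, or 1.80 to 26.5% of the array's brightness.

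The signals of the single family members stayed within a few units of 0. MiR-200c-3p gave signals of -4.79, -4.40 and -2.38 on the 3 control arrays, -2.74, -1.83 and -1.11 after 2 Gy, -3.82, -4.72 and -2.92 after 10 Gy and -5.94, -5.12 and -3.27 after 5x2 Gy. Its signal was thus below 0 on every array of every group, and the control range overlapped that of each irradiated group. MiR-429-3p, which shares its seed, gave 0.998, 3.13 and 2.23 units in control, 3.29, 0.973 and 4.45 after 2 Gy, 1.05, 1.37 and 1.94 after 10 Gy and -0.675, 0.522 and -1.13 after 5x2 Gy. The 5x2 Gy arrays were the low ones for miR-429-3p, and all of the values lay below the lowest negative control mean. The medians over 12 arrays were -0.778 units for miR-200a-3p, -1.55 for miR-200b-3p and 1.08 for miR-141-3p, with ranges of -3.14 to 2.56, -5.05 to 2.28 and -3.27 to 3.95 units. Different probes have different backgrounds, so these values give no order of abundance within the family.

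**Figure D1:**
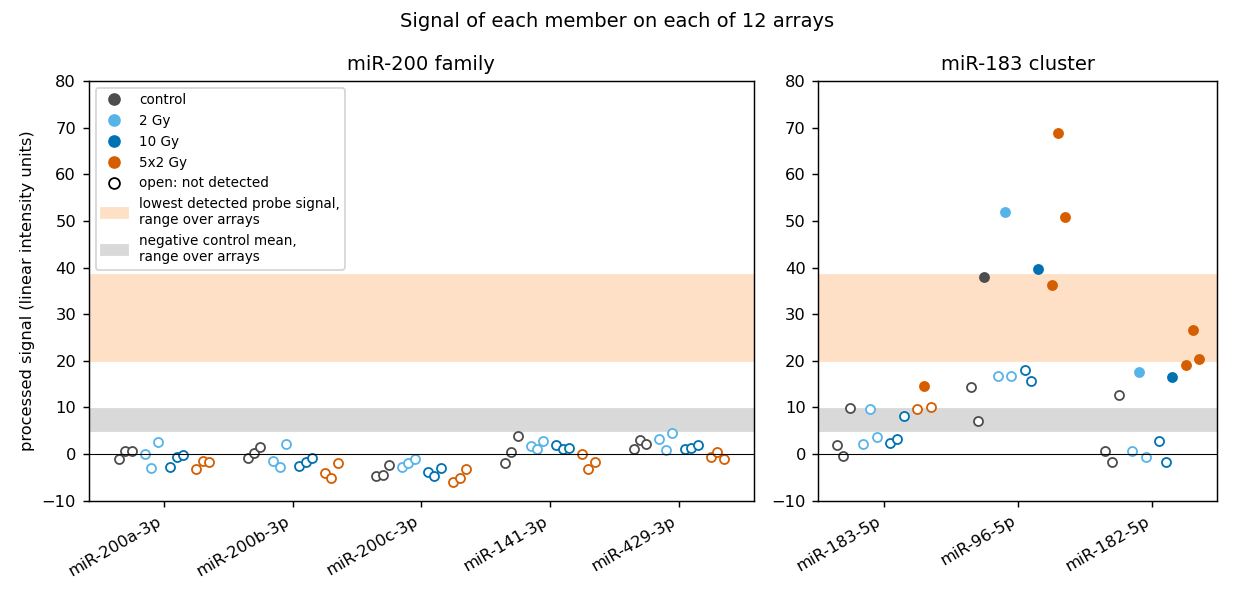
Background-subtracted signal (linear intensity units) of each member on each array, as the mean of its 2 probes. Colours are the groups of 3 arrays, filled points are arrays on which a probe of the member was detected, and the bands are the ranges over arrays of the negative control mean (4.92 to 9.69) and of the lowest detected probe signal (19.9 to 38.4). All 60 points of the miR-200 family lie below the lower band, between -5.94 and 4.45, while miR-96-5p reaches 68.8.

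Other miRNAs of epithelia were not detected either. The 4 entries of miR-203, miR-205 and miR-375 on the array (miR-203-3p, miR-203-5p, miR-205-5p and miR-375-3p) were detected on 0 arrays, as were the 5 opposite arms of the members' hairpins that the array holds (miR-200a-5p, miR-200b-5p, miR-200c-5p, miR-141-5p and miR-183-3p). Most miRNAs of the mesenchymal list did give signal. Of 13 miRNAs of mesenchymal cells or of carcinoma lines of mesenchymal character, 12 were detected on at least 1 array, against 25% of all entries. The lists were chosen with earlier results of these data known, so this count is a description and carries no test. On all 12 arrays 7 were detected, among them miR-199a-3p, miR-214-3p and miR-21a-5p. MiR-145a-5p was detected on 0 arrays and miR-143-3p on 7. Of 6 blood cell markers, 2 were detected, miR-142a-3p on 12 arrays and miR-142a-5p on 6. Of 3 muscle markers 1 was, miR-206-3p on 2 arrays, and 0 of 3 nerve cell and liver markers were.

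The miR-183 cluster stood above background in part, with 22.3% of its 695 spots flagged. The share was 45.4% for miR-96-5p, 19.0% for miR-182-5p and 2.99% for miR-183-5p. Over the 8 members together, the share of spots well above background was 3.63 ± 6.29% per array in control (SD, n = 3, range 0 to 10.9%), 5.31 ± 9.19% after 2 Gy (0 to 15.9%), 5.66 ± 9.81% after 10 Gy (0 to 17.0%) and 18.6 ± 5.21% after 5x2 Gy (13.5 to 23.9%). The 5x2 Gy arrays had the highest mean, and their range overlapped those of 2 Gy and 10 Gy but not that of control. Every share above 0 came from a brighter array.

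**Figure D2:**
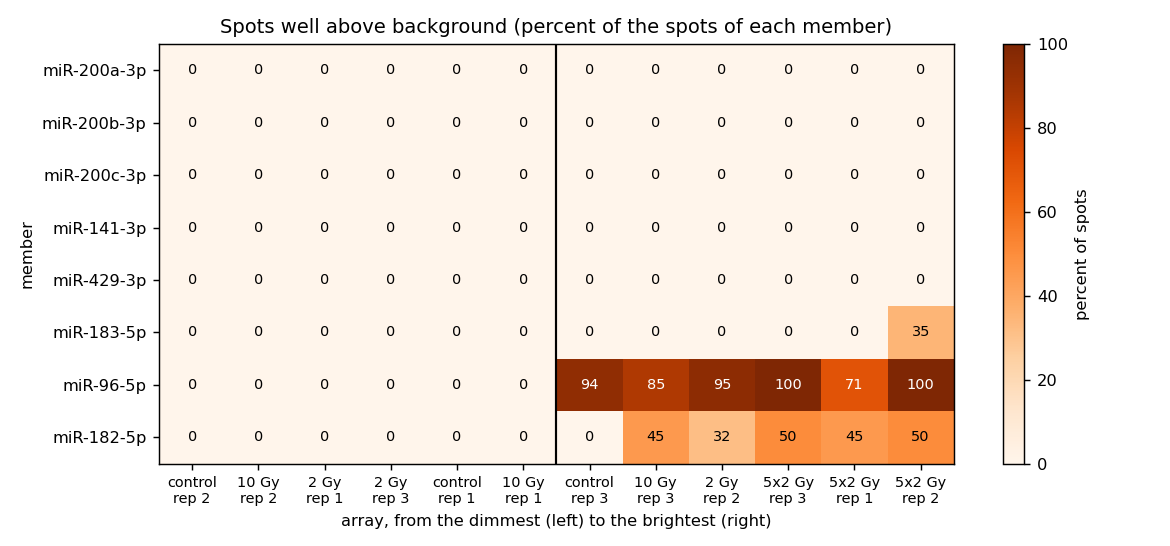
Percent of the spots of each member (rows) that were well above background on each array (columns, ordered from the dimmest to the brightest, with a line between the 6 dimmer and the 6 brighter arrays). The rows of the miR-200 family are at 0 throughout, and the rows of miR-96-5p and miR-182-5p leave 0 only to the right of the line.

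Counted as detected on at least 1 array were 3 of the 8 members, against 25% of the 576 entries. Detected on all 3 arrays of a group were 2 of 8, miR-96-5p and miR-182-5p, and this group was 5x2 Gy for both. The share of all entries so detected was 20.5% in at least 1 group, and by group it was 8.33% in control, 11.6% in 2 Gy, 10.8% in 10 Gy and 20.5% in 5x2 Gy. The members' shares thus lay near those of the whole array, where 5x2 Gy also led. By the scanner software's gene flag, which was set for 29% of the entries on at least 1 array, miR-96-5p was detected on 9 arrays, miR-182-5p on 6 and miR-183-5p on 1. For miR-96-5p these were 1 of 3 arrays in control, 3 in 2 Gy, 2 in 10 Gy and 3 in 5x2 Gy.

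MiR-96-5p, whose seed differs from that of miR-183-5p at 1 base, was detected on the most arrays. Its signal was 14.4, 7.18 and 38.0 units on control replicates 1 to 3, 16.8, 52.0 and 16.8 after 2 Gy, 18.1, 15.7 and 39.6 after 10 Gy and 36.2, 68.8 and 50.8 after 5x2 Gy. The high values were those of the 6 brighter arrays, on which it was detected, and the groups overlapped. As a percent of the array's brightness the same values were 4.16, 6.50 and 5.40% in control, 5.30, 5.80 and 5.18% after 2 Gy, 4.67, 5.13 and 4.56% after 10 Gy and 3.33, 6.24 and 5.06% after 5x2 Gy. On this relative scale the 5x2 Gy arrays held both the lowest value and the second highest, and the range of each irradiated group overlapped that of control. The highest value, 6.50% on control replicate 2, came from a signal below that array's negative control mean of 8.02 units. On the dimmer arrays miR-96-5p was not well above background, but the gene flag was set for it on 2 Gy replicates 1 and 3 and 10 Gy replicate 1. Apart from control replicate 2, its signals there were 14.4 to 18.1 units. These lay above the negative control means, at 4.92 to 9.69 units, but below the lowest detected probe signal of the same array. The relative values of the dimmer arrays are thus weak signals divided by a low brightness. Across the 12 arrays the signal ranged 9.58-fold and the brightness 9.97-fold, and the signal relative to brightness 1.95-fold. Control replicate 2 lay at an end of each of these ranges, so they do not show how the level of miR-96-5p relates to brightness. The 2 probes behaved alike, and probe A_54_P1332 was brighter than A_54_P1331 on 12 of 12 arrays.

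MiR-182-5p, the member known for repressing BRCA1, was carried by 1 of its 2 probes. Probe A_54_P2348 gave 7.25, 1.55 and 23.3 units in control, 4.86, 32.2 and 3.13 after 2 Gy, 5.60, 2.30 and 31.1 after 10 Gy and 34.9, 46.0 and 37.6 after 5x2 Gy. All 3 arrays of 5x2 Gy lay above all arrays of the other groups in raw units, and they were also 3 of the 6 brighter arrays. The other probe, A_54_P2347, never exceeded 7.22 units and was detected on 0 arrays, so the probes disagree and the member's detection rests on 1 of them. Relative to brightness, A_54_P2348 stood at 3.21, 4.18 and 3.75% after 5x2 Gy, and on the brighter arrays of the other groups it stood at 3.32% in control, 3.59% after 2 Gy and 3.59% after 10 Gy. The lone brighter array of each other group thus lay within the 5x2 Gy range of 3.21 to 4.18%. The 6 dimmer arrays were lower, at 0.750 to 2.09%. The part of array brightness in these values was not tested. A fold for 5x2 Gy over control cannot be given, because the control arrays detected miR-182-5p 0 times in 3. Its mean log2 level after 5x2 Gy, -4.76, was below the limit set by the lowest detected signals of the control arrays, -3.37.

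MiR-183-5p had the smallest share of spots above background in the cluster. Its signal was 1.95, -0.394 and 9.82 units in control, 2.28, 9.63 and 3.77 after 2 Gy, 2.32, 3.34 and 8.27 after 10 Gy and 9.70, 14.7 and 10.0 after 5x2 Gy. The group ranges of control and 5x2 Gy overlapped, and the low values were again those of the dimmer arrays. It was detected only on 5x2 Gy replicate 2, by 7 of 10 spots of probe A_54_P2351, which gave 22.3 units there, while the other probe, A_54_P2350, was detected on 0 arrays. Relative to brightness, A_54_P2351 stood at 1.12 to 3.06% on the dimmer arrays and at 1.38 to 2.21% on the brighter ones, so the sets overlapped.

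**Figure D3:**
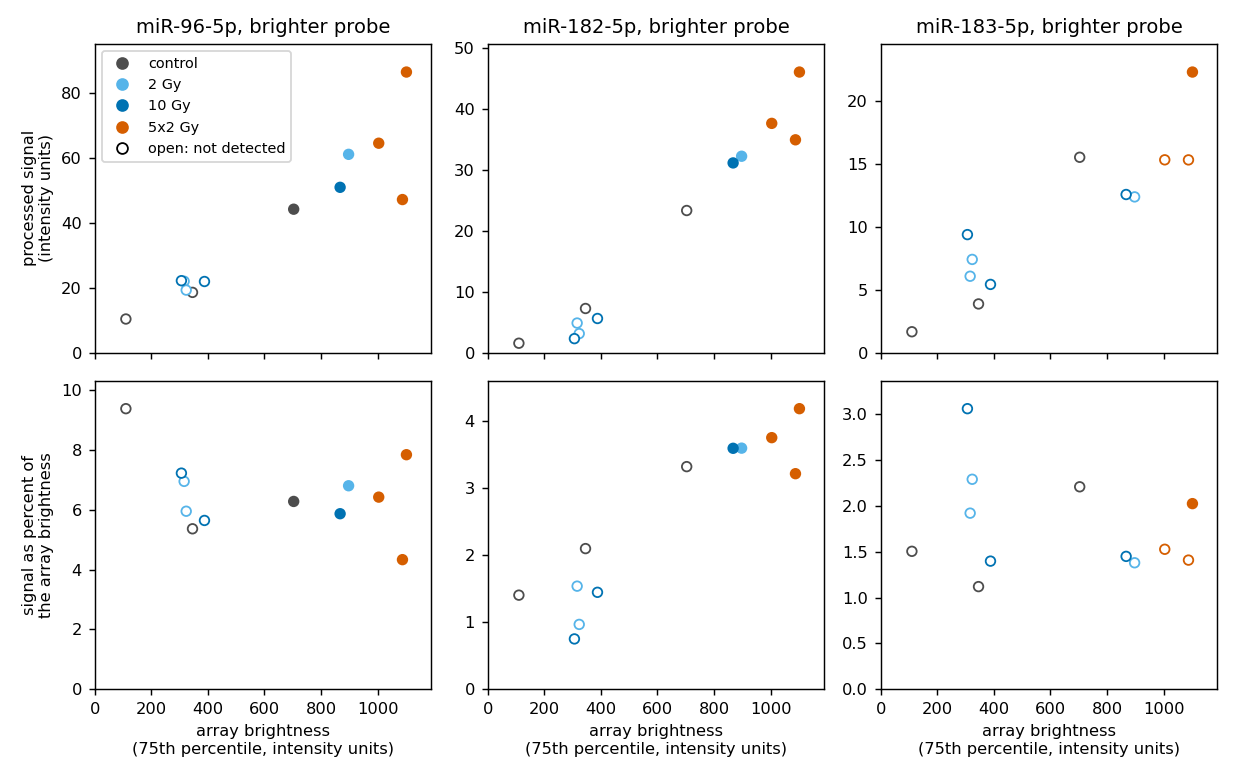
Signal of the brighter probe of miR-96-5p, miR-182-5p and miR-183-5p on each array, in intensity units (top row) and as a percent of the array's brightness (bottom row), against that brightness. Colours are the groups and open points are arrays on which the probe was not detected. In the top row all 3 rise with brightness. In the bottom row miR-182-5p is at 3.21 to 4.18% on all 6 brighter arrays, whatever the group, and at 0.750 to 2.09% on the dimmer ones.

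The comparisons of irradiated with control cells ask what each dose changed, and that of 5x2 Gy with 10 Gy asks whether the same total dose acts differently in fractions. Levels were log2 values relative to each array's brightness, with values under 5.98% of it (log2 -4.06) set to that floor. Of the 8 members, miR-96-5p and miR-182-5p passed the detection filter and were tested with limma among 118 entries. Both passed through the 5x2 Gy arrays alone, miR-182-5p was at the floor on all 12 arrays, so that its result was fixed, and miR-183-5p and the 5 miR-200 members did not pass. Neither was called at an adjusted p under 0.05 in any comparison, which for miR-182-5p says nothing. For miR-96-5p, probe A_54_P1331 never exceeded 4.79% of brightness and was thus at the floor on all 12 arrays. Only its other probe, A_54_P1332, could vary, so its result was fixed in part. For all entries tested, the share called was 0% for 2 Gy minus control, 0.847% for 10 Gy minus control, 12.7% for 5x2 Gy minus control and 2.54% for 5x2 Gy minus 10 Gy. At an unadjusted p under 0.05, limma called 0 members in each comparison, against 11, 24, 36 and 18 of the 118 entries, and no alternative setting that kept this scaling called one.

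MiR-96-5p differed from control by -0.05 after 2 Gy (SE 0.09, limma adjusted p = 0.975), by -0.07 after 10 Gy (limma adjusted p = 0.718) and by -0.04 after 5x2 Gy (limma adjusted p = 0.943) on the log2 scale, with 5 of its 12 values at the floor. The other values average probe A_54_P1332 with a probe held at the floor, so these differences and the SE are smaller than those of A_54_P1332 alone. With the floor set 4 times lower, miR-96-5p had 0 values at the floor and mean log2 levels of -4.33 ± 0.29 in control, -4.24 ± 0.10 in 2 Gy, -4.46 ± 0.05 in 10 Gy and -4.46 ± 0.47 in 5x2 Gy cells (SD, n = 3 each). Its difference from control was then 0.08 after 2 Gy (95% interval -0.40 to 0.57), -0.13 after 10 Gy (-0.62 to 0.35) and -0.13 after 5x2 Gy (-0.62 to 0.35). MiR-96-5p was detected on 1 of 3 arrays in each of control, 2 Gy and 10 Gy, and on 3 of 3 after 5x2 Gy. The means of the first 3 groups thus hold weak values from arrays on which neither probe was well above background. The intervals therefore neither bound the change of miR-96-5p nor show that the groups were alike. Direct comparison of 5x2 Gy with 10 Gy gave -0.00 (-0.49 to 0.48).

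With the lower floor miR-182-5p had 4 values at the floor, all from dimmer arrays. Its mean log2 level was -5.52 ± 0.58 in control, -5.63 ± 0.72 in 2 Gy, -5.64 ± 0.73 in 10 Gy and -4.76 ± 0.19 in 5x2 Gy cells (SD, n = 3 each). The member was detected on 0 of 3 arrays in control, 1 of 3 after 2 Gy, 1 of 3 after 10 Gy and 3 of 3 after 5x2 Gy, so the means of the first 3 groups hold values at or near background and no difference between groups is given. In these fits limma called 0 of the 2 members, with 0%, 0.847%, 21.2% and 3.39% of entries called in the 4 comparisons. Without the detection filter 366 entries left the lower floor on some array, among them 5 members (the cluster, miR-200a-3p and miR-429-3p), and limma called 0 of the 5 in each comparison. The share of entries called there was 0% for 2 Gy minus control, 0.273% for 10 Gy minus control, 4.64% for 5x2 Gy minus control and 1.37% for 5x2 Gy minus 10 Gy. Of the 5, miR-200a-3p and miR-429-3p were detected on 0 arrays and miR-183-5p on 1, so for them the fit compares values at background. MiR-200b-3p, miR-200c-3p and miR-141-3p stayed at the floor on all 12 arrays.

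Whether members were called changed with the scaling. The 5x2 Gy group had no dimmer array and no array on slide 1, so a difference in raw brightness and the treatment cannot be told apart. With the 75th percentile taken over all probes, most of which were at background, 86.4% of entries were called for 5x2 Gy minus control and the median entry was higher by 1.42 on the log2 scale. MiR-96-5p (0.80, limma adjusted p = 0.00698) and miR-182-5p (limma adjusted p = 0.00134) were among them. Neither was detected on a dimmer array, and values there can be held up by the floor. The difference of 0.80 therefore cannot be set against the median shift. With no scaling 72.9% of entries were called, with a median shift of 1.41, and of the members only miR-182-5p (limma adjusted p = 0.0171) was. For 5x2 Gy minus 10 Gy the same settings called 76.3% and 20.3% of entries, again with 2 members and 1. Both members passed the detection filter through the 5x2 Gy arrays alone. Control detected miR-182-5p on 0 of 3 arrays and miR-96-5p on 1, and 10 Gy detected each on 1 of 3. These calls thus set 5x2 Gy against values largely from arrays on which the member was not well above background.

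**Figure D4:**
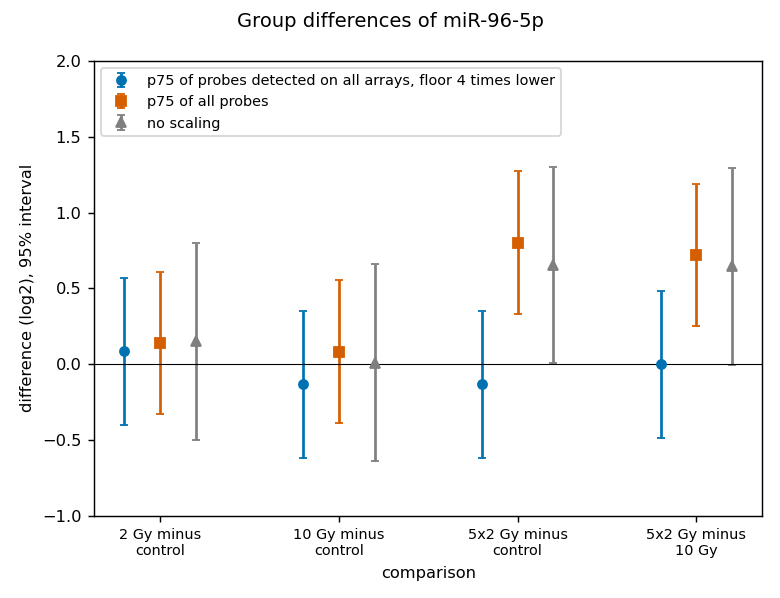
Difference in log2 level of miR-96-5p for the 4 comparisons, with 95% intervals from limma, under 3 ways of scaling the arrays. With scaling to the probes detected on all arrays and the lower floor (circles), every interval includes 0. With the percentile over all probes (squares) miR-96-5p lies 0.80 above control after 5x2 Gy, where control detected it on 1 of 3 arrays.

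In a fit of all 576 entries to the authors' deposited log2 table, 3 members of the miR-200 family were called lower after 5x2 Gy than in control, where 29.3% of all entries were called and the median entry differed by -0.38. In the authors' deposited table miR-429-3p differed by -1.09 (limma adjusted p = 0.0427), miR-141-3p by -0.92 (limma adjusted p = 0.0351) and miR-200b-3p by -0.91 (limma adjusted p = 0.047). For miR-429-3p the values of the authors' deposited table were 1.17, 2.10 and 1.00 in control and 0.12, 0.55 and 0.32 after 5x2 Gy, and the groups did not overlap. That table sets signals under 1 to 1 and then shifts each array by a constant, so a spot with a signal under 1 takes the array's shift as its value. The shifts in the authors' deposited table were 0.27, 0.51 and -0.23 for control and -0.19, -0.27 and -0.14 for 5x2 Gy. Of the miR-429-3p spots, 39.7% were at that lowest value in control and 63.2% after 5x2 Gy. For miR-141-3p the shares were 48.3% and 76.3%, and for miR-200b-3p 57.6% and 86.0%. None of these spots was well above background in the scanner files, so the differences compare values at background. With quantile normalization of background-corrected (normexp) spot medians, fitted over the same 576 entries, limma called 0 members (2.43% of entries called), with 1 at an unadjusted p under 0.05, miR-182-5p. In the other comparisons limma called 0 members from the authors' deposited table, against 0% of entries for 2 Gy minus control, 0.174% for 10 Gy minus control and 0.868% for 5x2 Gy minus 10 Gy, where 3 members had an unadjusted p under 0.05. From the normexp values it called 0 members too, against 0%, 0.174% and 0% of entries. In the authors' deposited table miR-96-5p differed by 1.41 between 5x2 Gy and control but was not called (limma adjusted p = 0.0608). Nor was miR-182-5p, which differed by 1.67 (limma adjusted p = 0.0608), with 49.1% of its control spots at the lowest value. At an unadjusted p under 0.05, limma called 7 of the 8 members in this comparison, against 270 of the 576 entries.

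Only miR-96-5p was detected on enough arrays for its pattern to be set against other tested miRNAs. The 3 most like it over the 12 arrays, by Pearson correlation of log2 levels, were miR-450a-5p (r = 0.77), miR-140-5p (r = 0.76) and miR-27b-3p (r = 0.71). With the lower floor they were miR-450a-5p (r = 0.66), miR-15a-5p (r = 0.58) and miR-31-3p (r = 0.52). All levels of an array share its brightness and its scaling. In the first set 5 of the values of miR-96-5p are at the floor, and its probe A_54_P1331 is there throughout. These figures thus describe the arrays and carry no test.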

How the data were processed

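The deposited scanner files hold spot intensity (gProcessedSignal) on a linear scale and spot flags with values of 0 or 1. Per the submitters' processing notes, they come from Agilent Feature Extraction, version 10.7.3.1. The deposited table of the authors is in log2: set against the scanner files, it is the log2 of that signal, with anything under 1 raised to 1, plus a constant for each array. Per the labels' protocols, 100 ng of total RNA was labelled with Cy3. Of 12493 spots per array, 953 were controls; these and outlier spots (2.04 to 4.95%) were dropped, and none was saturated. Spots were averaged per probe (1712 probes), divided by the array's brightness (75th percentile of the 78 probes that every array detected), set to a floor of 0.0598 and taken to log2. A miRNA's level averages those of its probes that 3 or more arrays detected, and 118 of 576 entries, detected on all 3 arrays of a group, were tested with limma 3.58.1 (R 4.3.3, with data.table at version 1.17.8) over all 12 arrays, two-sided, and adjusted by Benjamini-Hochberg over the entries of each comparison. The code was tested on simulated data. The normexp alternative (offset 50) used spot medians in place of spot means. The members, the lists of other miRNAs and the settings were chosen with earlier results of these data known. The text names the 8 members, the listed miRNAs by count with few examples, and the 3 miRNAs most like a member detected on at least 6 arrays. The array's design names the build mm9 per the file headers, so no coordinates are given. There were 0 columns of other samples. The number of arrays limits the precision.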

Additional observations from a re-analysis of the deposited data

How the results depend on the processing

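The counts of detected members, 3 on at least 1 array and 2 on all arrays of a group, were the same with the gene flag, with 1 or more flagged spots, with the 95th percentile of the negative control spots as the limit and with outlier spots kept. With each array left out the second count stayed at 2 and the first at 3, except that it was 2 without 5x2 Gy replicate 2. The share of member spots above background depended on the flag: with the flag for a positive and significant signal, which 55.9% of negative control spots also carried, it was 24.8% (control), 30.1% (2 Gy), 26.7% (10 Gy) and 34.1% (5x2 Gy). The count of called members, 0 in each comparison, changed for 5x2 Gy minus control to 2 with the percentile over all probes, 1 with no scaling and 3 with the authors' deposited table, and for 5x2 Gy minus 10 Gy to 2 and 1 with the first and second of these; leaving out any 1 array kept it at 0. The small differences of miR-96-5p changed sign. For 2 Gy minus control it was 0.14 with the percentile over all probes, 0.15 with no scaling, 0.085 with the lower floor (with or without the detection filter), 0.061 with normexp, 0.55 in the authors' deposited table and -0.091 to 0.13 with 1 array left out. For 10 Gy minus control it was 0.082 with all probes, 0.0083 with no scaling, 0.013 with normexp, 0.41 in the authors' deposited table and -0.20 to 0.0086 with 1 array left out. For 5x2 Gy minus control it was 0.80 with all probes, 0.65 with no scaling, 0.031 with slide as a block, 0.087 with normexp and 1.41 in the authors' deposited table. For 5x2 Gy minus 10 Gy it was -0.0069 with median scaling, -0.00080 with the lower floor (with or without the detection filter) and -0.019 to 0.070 with 1 array left out. The cause was not tested. With the replicate number as a block (replicate block) 0 members were called, miR-96-5p differed by -0.05, -0.07, -0.04 and 0.04 in the 4 comparisons, and 10 entries in place of 15 were called for 5x2 Gy minus control. Deviations of arrays of the same number correlated at -0.88 to 0.73, with 6 of 18 pairs over 0.1, against 15 of 36 pairs of different numbers. Of 12 arrays, 1 correlated best with its own number. The replicate block lowered the SE of miR-96-5p from 0.090 to 0.058. Whether arrays of the same number shared a culture or batch was not tested. Within slide 1, and within slide 2 (chosen after seeing the data), only miR-96-5p had values to test and it was not called; it differed by -0.05 for 2 Gy and for 10 Gy minus control and by 0.08 for 5x2 Gy minus 10 Gy, where a lone 10 Gy array was assumed to vary like the others. Of all entries tested, the count called for 5x2 Gy minus control was 4 with median scaling, 7 with the floor doubled, 25 with the floor 4 times lower, 1 with slide as a block, 102 with all probes, 86 with no scaling, 169 in the authors' deposited table, and 6 to 16 with 1 array left out (6 without control replicate 1).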
